A study of Mus musculus with 24 samples.

Results

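The complement component genes C2, C3, C4b, Cfb, Cfp, C1ra, C1s1, Serping1 and C3ar1 were described in the carotid artery of mice without ovaries that received vehicle, an estrogen or tamoxifen. The 9 genes were taken by name, through the Ensembl identifiers of the deposited tables and the GENCODE annotation of the GRCm38 build, and all 9 were among the 25033 genes tested of 55421 listed. Whole carotid arteries of wild-type C57BL/6 mice were profiled by RNA sequencing, with 6 libraries for each of 4 groups, 24 in all, and each library carried its own animal number (C2 to C39). Throughout, the letter C with a number after "replicate" or a group name is such an animal number, and not a gene. All 4 groups had their ovaries removed. OVX denotes the mice given vehicle, E2 those given estradiol, the main ovarian estrogen, E4 those given estetrol, an estrogen made by the human fetal liver, and TAM those given tamoxifen, a selective estrogen receptor modulator. The labels give an age of 9 weeks and the design text 3 weeks of treatment, whereas the methods of the study give a shorter treatment of younger mice, and they do not describe the tamoxifen libraries. The pellets of E2 and E4 held different doses. The study set the E4 dose to allow for receptor affinity, aiming at a uterine response like that of E2. The comparison of both estrogens is at the doses used. For the 6 E4 libraries the label of treatment reads placebo, in conflict with titles that name E4, and the titles set the group.

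Complement is a cascade of plasma and tissue proteins that tags surfaces for removal and draws in leukocytes. In the classical pathway, C1q bound to its target activates the proteases C1r and C1s, which cleave C4 and C2 to form an enzyme that splits C3. In the alternative pathway, C3b pairs with factor B, and properdin stabilizes the resulting enzyme. The liver makes most circulating complement, and fibroblasts and macrophages of the vessel wall also make several components.

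Library totals ranged from 24647246 to 64221401 counts with a median of 45156106, and the lowest count of any member in any library was 232. Values are given as CPM, in which counts are divided by library totals that were scaled by the TMM method. Smooth muscle Myh11 (611.9 to 2599 CPM) and endothelial Pecam1 (188.8 to 517.1 CPM) were present in every library, whereas hepatocyte Alb had a median of 0.0245 CPM and was at 0 in 9 libraries. Markers of sympathetic ganglion cells were low in OVX replicate C5 and TAM replicate C35, with a mean log2 CPM of 0.906 and 3.62 as compared with group medians of 7.25 and 7.66. Their summed level also differed between the groups, with a median of 3996 CPM in E4, 3022 CPM in TAM, 2510 CPM in E2 and 2337 CPM in OVX. E4 replicate C38, the library with the lowest total, held thyroid and parathyroid markers at 2956 CPM in sum (E4 median 34.9), and E2 replicate C9 held T cell markers at 326.6 CPM in sum (E2 median 11.3). The 4 members called in E2 against OVX and the 4 called in E4 against OVX stayed at 4 without either of these libraries, and in E4 against E2 the count of 5 was 3 without either. In whole arteries, fewer cells of a type and less RNA per cell cannot be told apart.

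Per kilobase of exon, Serping1 had the highest mean level over the 24 libraries (212.2 CPM per kb), followed by C3 (169 CPM per kb), C1s1 (74.2), C1ra (43.5) and C4b (36.6). Lower levels were measured for Cfp (18.5 CPM per kb), Cfb (12.2), C2 (6.96) and C3ar1 (3.22). The transcripts of the C1 inhibitor and of the central component C3 stood above those of C1ra and C1s1 on this per-length scale, and the receptor C3ar1 had the lowest level of the 9. This order pools the groups. By group means C4b stood above C1ra with E2 (50.4 and 47.5 CPM per kb) and E4 (37.6 and 36.2) and below it in OVX (25.8 and 45.2) and TAM (32.6 and 45.1). With E2, Serping1 and C3 were close, with means of 245.8 and 241.6 CPM per kb and medians of 230.5 and 251.5. Relative variation over the 24 libraries, as the coefficient of variation of CPM, was highest for Cfp (43.6%), C3ar1 (38.95%) and C3 (36.2%) and lowest for C2 (16.9%).

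C2, Cfb and C4b lie close together on chromosome 17 (C2 at 34862604 to 34898265, Cfb at 34856374 to 34862518 and C4b at 34728380 to 34743882), and C3 lies farther along that chromosome (57203970 to 57228136), all on the minus strand. C1ra (chromosome 6, 124512405 to 124523443, plus strand) and C1s1 (124530345 to 124542359, minus strand) are neighbors, C3ar1 lies at 122847138 to 122856161 of chromosome 6, Serping1 at 84765387 to 84775444 of chromosome 2 and Cfp at 20925454 to 20931555 of chromosome X, all 3 on the minus strand. Gm20547, a protein-coding gene model on the same strand, covers 79.5% of the exon bases of Cfb and 42.8% of those of C2 in the annotation, so reads there could be split between genes. The antisense gene Gm16567 covers 18.4% of the exon bases of C1s1, and whether counting used strand is not given in the sources used here. Reads of C4b, C1ra and C1s1 can also fall to the near-identical copies C4a, C1rb and C1s2.

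Promoters of the 3 genes that rose with E2 and have an entry among the RefSeq promoter sequences (GRCm38.p6) are shown, each as the 250 bases before the annotated start, read 5′ to 3′ on the strand of the gene. They span chr17:57228137-57228386 for C3, chrX:20931556-20931805 for Cfp and chr6:122856158-122856407 for C3ar1. Capitals mark matches, on either strand, to TTGCNNAA (C/EBP-type), TGANTCA (AP-1) or GGTCA (an estrogen response half-site).
C3: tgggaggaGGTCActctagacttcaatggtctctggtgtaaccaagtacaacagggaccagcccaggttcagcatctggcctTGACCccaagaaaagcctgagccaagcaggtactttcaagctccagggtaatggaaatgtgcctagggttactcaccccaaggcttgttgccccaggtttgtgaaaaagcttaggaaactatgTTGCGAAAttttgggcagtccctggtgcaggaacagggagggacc
Cfp: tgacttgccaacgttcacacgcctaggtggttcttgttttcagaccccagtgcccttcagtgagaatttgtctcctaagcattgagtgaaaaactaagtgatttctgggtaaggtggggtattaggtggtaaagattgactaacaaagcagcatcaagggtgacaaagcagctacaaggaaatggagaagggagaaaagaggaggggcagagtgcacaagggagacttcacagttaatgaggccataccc
C3ar1: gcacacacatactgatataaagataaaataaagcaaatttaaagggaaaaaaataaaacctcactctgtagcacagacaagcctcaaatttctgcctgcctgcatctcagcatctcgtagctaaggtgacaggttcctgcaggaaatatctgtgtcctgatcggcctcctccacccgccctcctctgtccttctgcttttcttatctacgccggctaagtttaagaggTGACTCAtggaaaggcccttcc

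C3 held a C/EBP-type match beginning 45 bases before the start and half-sites beginning 242 and 168 bases before it, and C3ar1 held an AP-1 match beginning 22 bases before the start. Over all 32851 promoter windows of that length, 9.56% held a C/EBP-type match, 6.75% an AP-1 match and 35.2% a half-site. The full element, GGTCA and its reverse complement separated by 3 bases, occurred in 0.0639% of windows and in no window of a member. TTCNNNGAA (STAT-type, in 7.02% of all windows) and GAGGAA (PU.1-type, in 23.3%) were searched as well and had no match in the windows of members. Entries were found for 5 of the 9 members, C3, Cfp, C3ar1, C1ra and C1s1. Of the 2 entries of C1s1, 1 held a C/EBP-type match, and C1ra held no match to any of these motifs.

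With E2, 4 of the 9 genes were higher than in OVX, the central component C3, the classical-pathway component C4b, properdin (Cfp) and the C3a receptor (C3ar1), by 1.78- to 2.34-fold. Over all tested genes, 2.88% were called higher in this comparison (adjusted p below 0.05, edgeR's quasi-likelihood test, Benjamini-Hochberg adjusted). In each of the 4 genes every E2 library lay above every OVX library, a separation seen in either direction in 2.83% of tested genes. C3 alone also passed the fold-change threshold of the study, an absolute log2 fold change over 1, which 0.923% of genes passed as higher. The median log2 fold change of the 9 was 0.25, as compared with 0.01 over all tested genes.

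E4 gave another pattern, in which C3 and C4b were higher and C2 and Cfb lower than in OVX. Among all genes, 9.52% were called higher and 12.5% lower with E4, so 2 of 9 in either direction stood beside a broad background. None of the 9 passed the fold-change threshold of the study, which 2.51% of genes passed in either direction, and in no member did the E4 and OVX libraries separate completely (9.37% of genes). The median log2 fold change of the members was -0.22. Between both estrogens, 5 members were lower with E4 than with E2 (C4b, Cfb, Cfp, C1s1 and C3ar1), and 8.97% of genes were called lower. That count was 8 without E4 replicate C39 and 3 without any of E2 replicates C6, C8 or C9 or E4 replicates C19, C20 or C38. Cfp and C3ar1 passed the fold-change threshold of the study (2.25% of genes as lower) and were the members whose E4 and E2 libraries did not overlap (6.17% of genes in either direction). E2 against OVX, E4 against OVX and E4 against E2 share libraries, so their values are given side by side.

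With TAM, no member was called against OVX by edgeR, as compared with 2.21% of genes called in either direction. At an unadjusted p below 0.05 there were 2 members, C3 and C4b, and DESeq2 called 1, C3 (adjusted p = 0.0389). Differences ranged from -0.27 for C3ar1 to 0.52 for C3 on the log2 scale. TAM libraries were lower than E2 libraries in C3, C4b, Cfp and C3ar1, 4 members against a background of 4.51% of genes, and in all 4 the groups did not overlap (4.24% of genes in either direction). Cfp and C3ar1 passed the fold-change threshold there (1.39% of genes). Between TAM and E4 no member was called by edgeR, with 2 at an unadjusted p below 0.05 (C2 and C1ra) and 1 by DESeq2, and 0.34% of all genes were called.

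**Figure D1:**
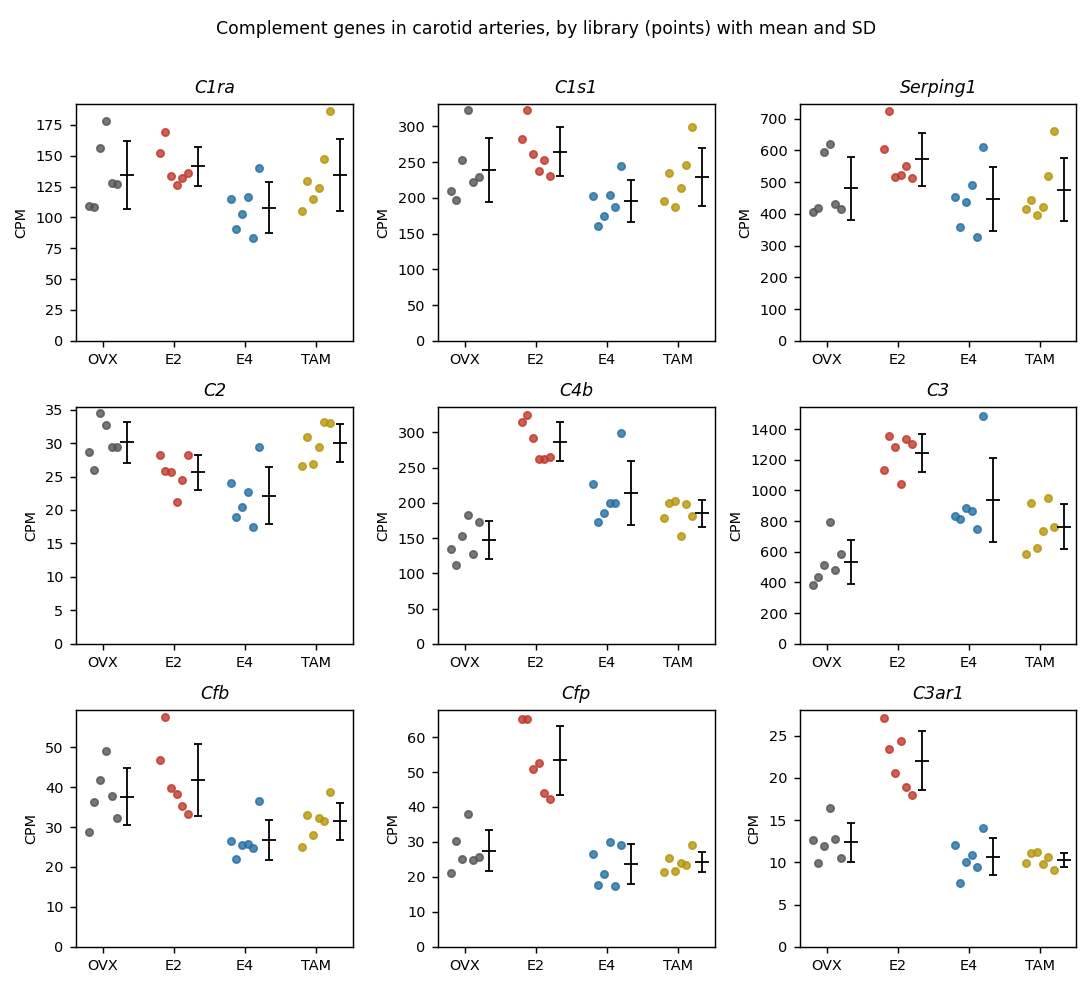
Each panel plots 1 complement gene, with the CPM of each library (points, linear axis from 0) in OVX, E2, E4 and TAM mice and the mean and SD of the 6 libraries beside them. E2 points of C3, C4b, Cfp and C3ar1 lie above all OVX points, and E4 replicate C39 stands above the other E4 libraries in C3 at 1488 CPM.

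C3, the component on which all activation pathways converge, was at 386.5 to 792.5 CPM in OVX (median 496.7) and at 1043 to 1353 CPM in E2 (median 1293). It was at 750.3 to 1488 CPM in E4 (median 848.6) and at 587.8 to 949.9 CPM in TAM (median 749). E2 libraries were the highest as a group and OVX the lowest, with only E4 replicate C39 above the E2 range. C3 was 2.34-fold higher with E2 than with OVX (95% interval 1.81 to 3.01, adjusted p = 8.55e-05) and 1.76-fold higher with E4 (1.37 to 2.27, adjusted p = 0.00314). The change with TAM was 1.43-fold (1.12 to 1.84, adjusted p = 0.0956), and E4 differed from E2 by a log2 fold change of -0.40 (95% interval -0.77 to -0.04, adjusted p = 0.121). Without OVX replicate C5, the highest OVX library, the TAM difference was 0.68 on the log2 scale with an adjusted p of 0.0432. Without E4 replicate C39, the E4 to E2 difference was -0.58 with an adjusted p of 0.0186. In the order E2, E4, TAM, OVX, no neighboring groups differed by the test.

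C4b, whose protein is split by C1s to join the classical and lectin C3 convertase, followed the same order of group means. Its level was 111.9 to 182.4 CPM in OVX (median 143.8), 262.1 to 325.3 CPM in E2 (278.6), 172.5 to 299.2 CPM in E4 (199.5) and 152.4 to 202.1 CPM in TAM (190.0). The E4 and E2 ranges overlapped through E4 replicate C39 alone. C4b was 1.95-fold higher with E2 than with OVX (1.62 to 2.34, adjusted p = 2.69e-05) and 1.46-fold higher with E4 (1.21 to 1.75, adjusted p = 0.00556). It was lower with E4 than with E2 by a log2 fold change of -0.42 (adjusted p = 0.032), a call that was lost when any of 7 libraries was left out, E2 replicates C6, C8 or C9 or E4 replicates C19, C20, C36 or C38, at adjusted p-values up to 0.088. C4a, the near-identical copy, rose as well with E2 (log2 fold change 0.80, adjusted p = 0.000268) and E4 (0.49, adjusted p = 0.0101). With the counts of C4a added, the difference with E2 was 0.95. In the order E2, E4, TAM, OVX, E2 differed from E4, and the other neighbors did not differ by the test.

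C2, which C1s cleaves to give the protease part of that convertase, was lower with E4. It was at 25.95 to 34.51 CPM in OVX (median 29.4), 21.13 to 28.26 CPM in E2 (25.8), 17.39 to 29.36 CPM in E4 (21.6) and 26.57 to 33.1 CPM in TAM (30.2). E4 libraries other than C39 lay below the OVX range. C2 was 0.736 times the OVX level with E4 (95% interval 0.632 to 0.856, adjusted p = 0.00586), and with E2 the ratio was 0.851 (0.732 to 0.989, adjusted p = 0.264). With the counts of the overlapping Gm20547 added, the E2 difference moved from -0.23 to -0.06 on the log2 scale, and the E4 to E2 difference from -0.21 to -0.40 (adjusted p = 0.02). Gm20547 shares 1656 exon bases with C2 and 2246 with Cfb, so the added counts can include reads of Cfb exons. The latter gene was itself lower with E4 than with E2, by -0.575 with the same counts added (adjusted p = 0.0074).

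The proteases C1ra and C1s1 and their inhibitor Serping1 differed little from OVX. C1ra was at 108.6 to 178.4 CPM in OVX (median 127.5), 126.7 to 169.1 CPM in E2 (135.1), 83.05 to 140.0 CPM in E4 (109.0) and 105.6 to 186.7 CPM in TAM (126.4). C1s1 was at 197.6 to 322.5 CPM in OVX (median 226), 231.1 to 322.8 CPM in E2 (257.1), 159.9 to 245.0 CPM in E4 (195.4) and 187.8 to 299.2 CPM in TAM (224.3). Serping1 was at 404.9 to 619.5 CPM in OVX (median 424.7), 513.0 to 725.4 CPM in E2 (535.9), 326.7 to 610.8 CPM in E4 (444.2) and 397.8 to 659.7 CPM in TAM (432.6). All groups overlapped in these 3 genes, and none was called against OVX. With E2 the log2 differences were 0.07 for C1ra (95% interval -0.23 to 0.37), 0.15 for C1s1 (-0.12 to 0.41) and 0.25 for Serping1 (-0.07 to 0.58). With E4 they were -0.32 for C1ra (-0.62 to -0.02), -0.29 for C1s1 (-0.56 to -0.02) and -0.11 for Serping1 (-0.43 to 0.22). C1s1 was lower with E4 than with E2 (log2 fold change -0.44, adjusted p = 0.031), and the call was lost without any of E2 replicates C6, C8 or C9 or E4 replicates C19, C20 or C38, at adjusted p-values up to 0.0963.

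Factor B (Cfb), the protease precursor of the alternative pathway, was highest in E2 and lowest in E4. Levels were 28.87 to 49.0 CPM in OVX (median 37.0), 33.3 to 57.52 CPM in E2 (39.04), 21.93 to 36.47 CPM in E4 (25.7) and 25.04 to 38.77 CPM in TAM (31.8). E4 libraries other than C39 lay below every OVX and E2 library. Cfb was 0.713 times the OVX level with E4 (0.58 to 0.877, adjusted p = 0.0201), and 0.641 times the E2 level (0.521 to 0.789, adjusted p = 0.00683). The call against OVX was lost without OVX replicate C5 (adjusted p = 0.066) or E4 replicate C19 (adjusted p = 0.051). With E2, Cfb was at 1.11 times the OVX level (0.904 to 1.36, adjusted p = 0.713).

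Properdin (Cfp), which prolongs the life of the alternative convertase, was set apart in E2 alone. It was at 21.08 to 38.12 CPM in OVX (median 25.4), 42.25 to 65.32 CPM in E2 (51.6), 17.39 to 29.95 CPM in E4 (23.7) and 21.48 to 29.24 CPM in TAM (23.7). Every E2 library exceeded every other library. Cfp was 1.94-fold higher with E2 than with OVX (1.55 to 2.42, adjusted p = 0.000365). With E4 it was at 0.443 times the E2 level (0.354 to 0.554, adjusted p = 7.56e-05), and the E4 to OVX difference was -0.22 (95% interval -0.54 to 0.10, adjusted p = 0.31).

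C3ar1, the receptor of the C3 fragment C3a on myeloid cells, was at 9.886 to 16.46 CPM in OVX (median 12.3), 17.99 to 27.03 CPM in E2 (22.0), 7.603 to 14.09 CPM in E4 (10.5) and 9.049 to 11.21 CPM in TAM (10.2). As for Cfp, all E2 libraries exceeded all others. C3ar1 was 1.78-fold higher with E2 than with OVX (1.47 to 2.16, adjusted p = 0.000311), and with E4 it was at 0.485 times the E2 level (0.4 to 0.588, adjusted p = 5.4e-05). TAM libraries were at 0.4659 times the E2 level (0.384 to 0.565, adjusted p = 1.13e-05). The ligand precursor C3 thus had higher transcript levels with both estrogens, whereas its receptor was called higher with E2 and not with E4 (-0.21, 95% interval -0.49 to 0.07), and both genes differed between E2 and TAM.

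**Figure D2:**
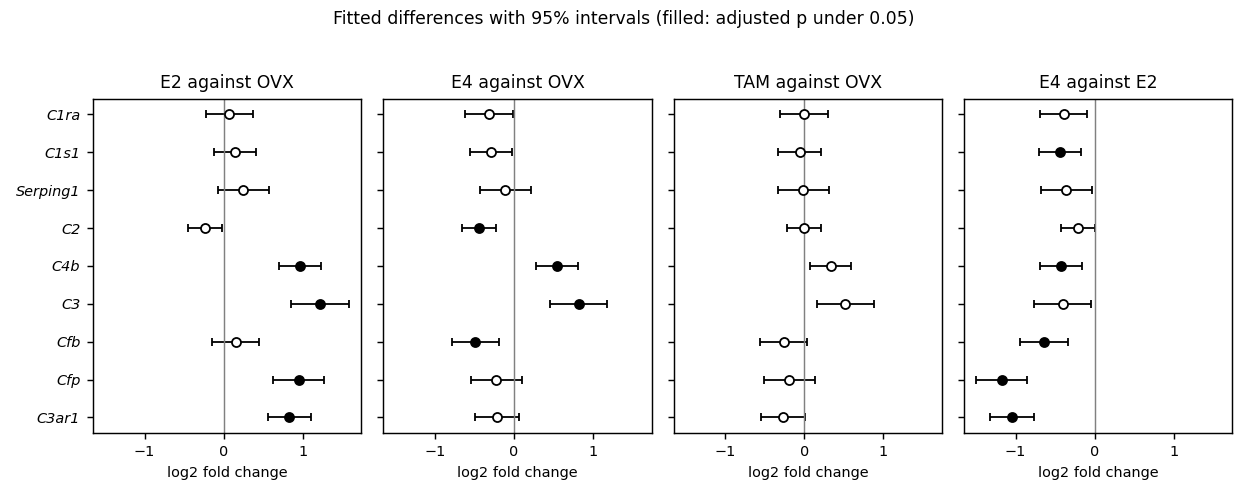
Fitted log2 fold changes (points) with 95% intervals (bars) are plotted for the 9 genes in 4 comparisons, filled where the adjusted p was below 0.05. In E2 against OVX the 4 filled points lie between 0.83 and 1.22, and in TAM against OVX none is filled.

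Animal numbers fell into a low series (up to C20) and a high series (from C24) within each group, which neither the labels nor the methods call batches. The E2 to OVX difference of C3 was 1.24 in the first series and 1.20 in the second, that of C4b 1.09 and 0.80, that of Cfp 1.07 and 0.86, and that of C3ar1 0.89 and 0.80. The 4 were called in the first series alone, and none in the second alone, where 2 OVX and 3 E2 libraries remained. For E4 against OVX, C3 differed by 0.66 and 0.97 and C4b by 0.42 and 0.64, whereas C2 (-0.53 and -0.33) and Cfb (-0.66 and -0.26) were nearer 0 in the second series. In the first series C2 (adjusted p = 0.0225) and Cfb (0.0361) were called, and C3 (0.0784) and C4b (0.0891) were not. No member was called for E4 against OVX in the second. The shares of all tested genes called within a series are not given here. A test of the interaction of treatment and series found no member at an adjusted p below 0.05, nor at an unadjusted p below 0.05.

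Further genes of the cascade were taken from a list of 49, of which 38 passed the filter on low counts. With E2, 14 of the 38 were called higher and 1 lower, with a median log2 fold change of 0.23, and with E4 5 were higher and 3 lower (median -0.14). Of all tested genes, 2.88% were called higher with E2, and 9.52% were called higher and 12.5% lower with E4, so the E4 counts lay near the background. With TAM none was called by edgeR against OVX (median -0.02). E4 was lower than E2 in 14 and higher in 0 (median -0.39), and TAM was lower than E2 in 17 and higher in 1 (median -0.37), where 8.97% and 4.51% of all tested genes were called lower.

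Genes of recognition and initiation are given first. The lectin-pathway recognition protein ficolin A (Fcna) rose with E2 by 1.65 on the log2 scale (adjusted p = 1.84e-05), from 8.95 ± 4.18 CPM in OVX to 28.0 ± 2.96 CPM (SD, n = 6 each), and it was lower with E4 than with E2 by -1.40 (adjusted p = 0.000264). The lectin protease Masp1 rose with E2 (1.25, adjusted p = 3.35e-05) and with E4 (0.72, adjusted p = 0.00539). C1qb, a chain of C1q, rose by 1.0 with E2 (adjusted p = 0.000572), and C1qa and C1qc, outside the naming rule for this comparison and named after their values were seen, rose by 0.92 and 0.88. All 3 chains were lower with E4 than with E2, by -1.17 (C1qb), -1.07 (C1qa) and -1.01 (C1qc). The chains of C1q thus changed with E2 while the proteases C1ra and C1s1 that they activate were not called.

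Downstream, adipsin (Cfd), the protease that cleaves factor B, rose from 697 ± 253 CPM in OVX to 1667 ± 219 CPM with E2 (log2 fold change 1.26, adjusted p = 0.000206) and to 1118 ± 251 CPM with E4 (0.68, adjusted p = 0.0159; SD, n = 6 each). The receptor of C5a, C5ar1, rose with E2 (1.20, adjusted p = 0.000247), as did Itgam (1.48, adjusted p = 3.57e-07) and Itgb2 (0.97, adjusted p = 0.000725), which together form complement receptor 3. These 3 receptor genes were also lower with E4 than with E2, by -1.01, -1.26 and -1.11. Among the regulators, Cpn2, the regulatory subunit of the carboxypeptidase that inactivates C3a and C5a, fell with E2 (-1.07, adjusted p = 0.0141) and with E4 (-1.35, adjusted p = 0.00147), and Cd46 fell with E4 (-0.42, adjusted p = 0.0153). Calr, a chaperone that also binds C1q, rose with E2 (0.66, adjusted p = 0.00011) and with E4 (0.48, adjusted p = 0.00204).

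**Figure D3:**
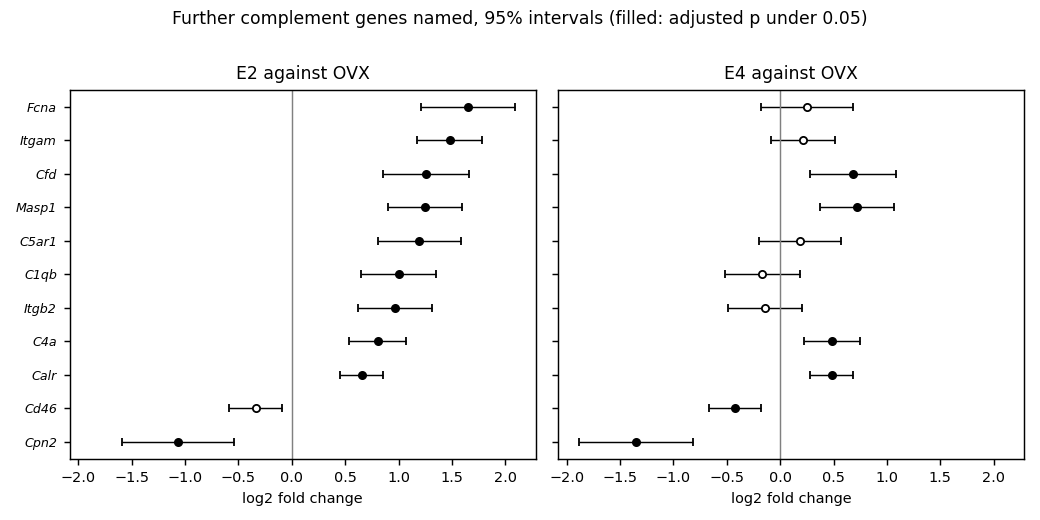
Log2 fold changes (points) with 95% intervals (bars) are plotted for the 11 further complement genes that the naming rule took from called genes of E2 or E4 against OVX, ordered by the E2 value and filled where the adjusted p was below 0.05. E2 shows 10 filled points, 9 of them above 0, and E4 shows 6.

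Markers of cell types that can make complement were counted beside these results. Of 12 macrophage markers, 11 were higher with E2 than with OVX (median log2 fold change 0.83), 2 were lower with E4 (median -0.27), none was called with TAM (median -0.15), and 11 were lower with E4 than with E2 (median -1.11). Their summed level was 651.3 to 1193 CPM in OVX, 1077 to 1669 CPM in E2, 465.1 to 842.8 CPM in E4 and 552.6 to 837.2 CPM in TAM, and no marker was at 0 in any library. Lyve1 (1.24, adjusted p = 1.47e-05), Cd68 (0.90, adjusted p = 0.000472) and Cd163 (0.89, adjusted p = 0.00283) were among those higher with E2. Of 10 adventitial fibroblast markers, 1 was higher with E2 (Cd34, 0.72, adjusted p = 0.0138), 5 were lower with E4 (median -0.56), 2 were higher with TAM, and 6 were lower with E4 than with E2. Summed fibroblast levels were 5022 to 7937 CPM in OVX, 5346 to 8058 CPM in E2, 3465 to 5699 CPM in E4 and 5080 to 8285 CPM in TAM. Of all tested genes, 2.88% were called higher with E2, 12.5% lower with E4, 2.21% in either direction with TAM, and 8.97% lower with E4 than with E2. By median summed level, macrophage markers were highest in E2 (1409 CPM) and fibroblast markers lowest in E4 (4413 CPM). By group means, all members except C2 were highest in E2. C2, Cfb, Cfp, C1ra, C1s1 and Serping1 were lowest in E4, C3 and C4b in OVX and C3ar1 in TAM. With E4 against OVX, C3 and C4b differed by 0.82 and 0.54, and no macrophage marker was called higher. The median summed macrophage level was 663.3 CPM in E4 and 746.4 CPM in OVX. No cause of these levels was tested.

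With the mean macrophage marker level as a covariate, the E2 to OVX difference was 0.58 for C3 (adjusted p = 0.0525), 0.50 for C4b (adjusted p = 0.0414), 0.12 for Cfp (adjusted p = 0.509) and 0.26 for C3ar1 (adjusted p = 0.23). C4b was then the member called higher, and C2 (-0.66), Cfb (-0.53), C1ra (-0.66), C1s1 (-0.46) and Serping1 (-0.54) were called lower. With that covariate no member was called between E4 and E2, and the differences of C3 and C4b between E4 and OVX were 1.02 (adjusted p = 9.8e-05) and 0.67 (adjusted p = 0.000497). With the fibroblast marker mean as a covariate, C3, C4b, Cfp and C3ar1 remained called higher with E2 (1.13, 0.89, 0.82 and 0.76), whereas C2 and Cfb were no longer called with E4 (-0.23, adjusted p = 0.0991, and -0.09, adjusted p = 0.5). That fit also called C2 lower with E2 (-0.30, adjusted p = 0.0188), Serping1 higher with E4 (0.32, adjusted p = 0.0118) and Cfb lower with TAM (-0.25, adjusted p = 0.0284). C3 and C4b were called higher with TAM in either fit (0.67 and 0.44 with the macrophage covariate, 0.54 and 0.35 with the fibroblast covariate). Of 8 B cell markers, all 8 were lower with E4 than with OVX (median -1.92), and with their mean as a covariate 0 members were called between E4 and OVX and 2 between E4 and E2. The E4 to OVX differences in that fit were 0.93 for C3 (adjusted p = 0.115), 0.54 for C4b (adjusted p = 0.212), -0.44 for C2 (adjusted p = 0.207) and -0.30 for Cfb (adjusted p = 0.581), as compared with 0.82, 0.54, -0.44 and -0.49 without the covariate. Marker levels differed between the groups, so their part and that of the treatment cannot be told apart. The shares of all tested genes called in these covariate fits are not given here, so the counts of members called have no background beside them. Of 28 interferon response genes, 1 was higher with E2, 1 was lower with E4 and none was called with TAM by edgeR. Of 20 acute phase and interleukin 6 response genes, 6 were higher with E2, haptoglobin (Hp) by 1.52 (adjusted p = 2.29e-05), and 3 were higher and 2 lower with E4. Of all tested genes, 2.88% were called higher with E2, and 9.52% were called higher and 12.5% lower with E4. The E4 counts of the acute phase list lay near these shares, and those of the interferon list lay below them. Of 8 tested neutrophil markers, none was called against OVX, and 4 were lower with E4 than with E2 (median -1.69), at summed levels of 3.83 to 11.1 CPM in E4 and 8.18 to 71.2 CPM in E2.

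Variation within groups was compared next. Each member's log2 CPM was taken as its deviation from the group mean, and over the 24 libraries all 36 pairs of members had a positive Pearson r, from 0.41 to 0.96. For 35 of the 36 pairs r had an adjusted p below 0.05 in a two-sided permutation test within groups (100000 resamples, Benjamini-Hochberg over the 36), and for 33 by Spearman's rho. Without OVX replicate C5 and TAM replicate C35 the count was 31. The deviations of a pair share the library and its scaling, and over all 313313028 pairs of tested genes 49.7% had a positive r and 14% an r at or above the lowest of the members. The highest r was that of C1ra with Serping1 (r = 0.957, rho = 0.923, permutation p = 1e-05 for both, the smallest these resamples can give, adjusted p = 4.5e-05 and 9e-05, and r = 0.94 without the 2 libraries farthest from the median). C1ra with C1s1 was next (r = 0.918, rho = 0.858, permutation p = 1e-05 and 2e-05, adjusted p = 4.5e-05 and 9e-05, and r = 0.876 without the 2 libraries). The pair that did not pass was C3 with its receptor gene C3ar1 (r = 0.415, rho = 0.127, permutation p = 0.0817 and 0.566, the same after adjustment, and r = -0.03 without the 2 libraries). By r, the proteases and the inhibitor of C1 formed the 3 closest pairs, with C1s1 and Serping1 at 0.882.

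**Figure D4:**
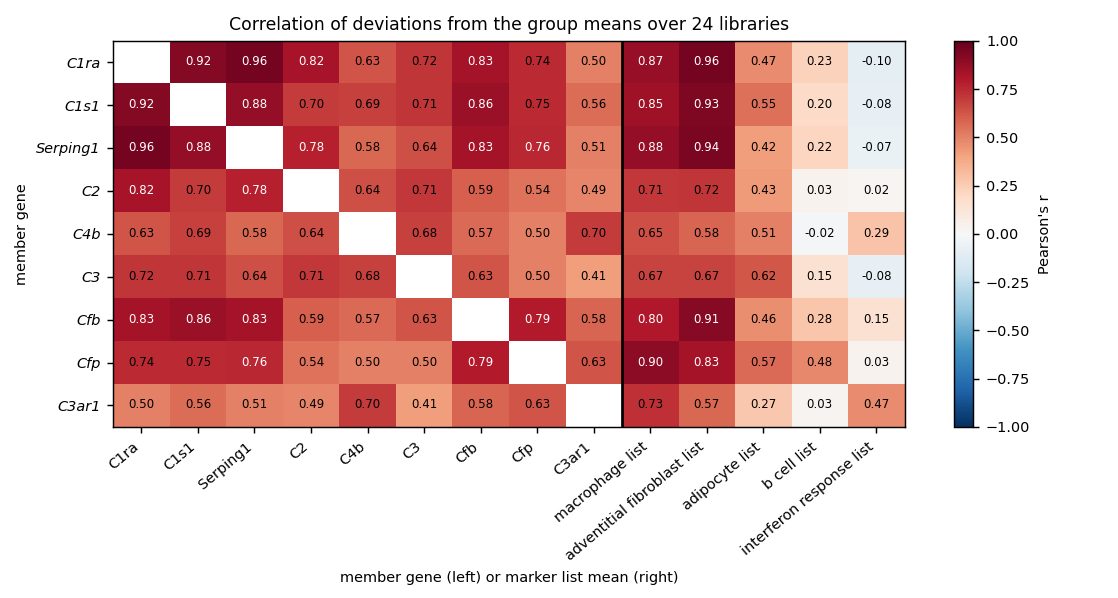
Cells give Pearson's r over 24 libraries, on deviations of log2 CPM from the group mean, between members (left of the line) and between members and the mean of each of 5 marker lists (right), on a color scale from -1 to 1. Left of the line, C1ra, C1s1 and Serping1 form the darkest block, at 0.88 to 0.96, and the macrophage and fibroblast columns are positive for all 9 members.

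Against 5 marker list means, 25 of 45 relations had an adjusted p of r below 0.05. The fibroblast and macrophage lists each passed with all 9 members, with r of 0.571 to 0.956 and 0.648 to 0.897, the adipocyte list with 5, and the B cell and interferon response lists with 1 each. As for the pairs, these deviations share the library and its scaling. The share of all tested genes that would pass with these lists is not given here, so the counts are not set against a background. C1ra with the fibroblast list had r = 0.956 (rho = 0.896, permutation p = 1e-05 for both, adjusted p = 5e-05 and 5.62e-05, and r = 0.934 without the 2 libraries farthest from the median). Cfp with the macrophage list had r = 0.897 (rho = 0.888, permutation p = 1e-05 for both, adjusted p = 5e-05 and 5.62e-05, and r = 0.863 without the 2 libraries). C3ar1 was the member whose r with the interferon response list passed (r = 0.469, rho = 0.5261, permutation p = 0.0129 and 0.0126, adjusted p = 0.0263 and 0.0316, and r = 0.392 without the 2 libraries).

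The tested genes most like the members were ranked by Pearson's r with the mean scaled log2 CPM of the 9 over all 24 libraries, a measure that includes the differences between groups. They were Cd248 (r = 0.960), a marker of stromal cells, Slc11a1 (r = 0.954), a metal transporter of phagocytes, Pld4 (r = 0.945), Cd34 (r = 0.942) and Cmtm3 (r = 0.941). Cd34 is also in the fibroblast marker list. These values are a description of 24 libraries, with no test.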

How the data were processed

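RNA of whole carotid arteries was sequenced from 24 ovariectomized mice. Per the labels, the authors used bcl2fastq 2.17, Trim Galore, Bowtie2 and featureCounts on the mm10 build, with other versions, the annotation release and the strand setting not given in the sources used here. What the authors deposited are estimated counts of each gene, in a separate table for every library and not normalized. Between 8.87% and 9.8% of values per library carried decimals, so reads of overlapping genes may have been split, and values were rounded. Names and coordinates came from GENCODE (GRCm38), which named 55240 of 55421 genes.

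The 24 libraries entered a single fit with edgeR 4.0.16 in R 4.3.3 (quasi-likelihood test, TMM scaling, filterByExpr, Benjamini-Hochberg adjustment), with 6 pairwise comparisons over 25033 genes and a threshold of adjusted p below 0.05. Log2 CPM used a prior count of 0.5. Intervals are 95% intervals of the fit. Correlations and figures used Python 3.11.15, scipy 1.17.1 and matplotlib 3.10.9. Alternatives included DESeq2 1.42.0, other scaling, filters, subsets and marker covariates. The tests were tried on simulated data. Members, gene lists and alternatives were chosen with earlier results of these data known. From the list of further complement genes the text names, per comparison, at most 8 called genes by size of change with a mean of at least 1 CPM, and from other lists at most 3. A gene taken for a comparison can be given in another as well, as C4a and Calr were for E2 against OVX. A gene that this rule also takes is not reported here. Separate animals were taken as replicates, and the intervals of the fit rest on the variation between them.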

Additional observations from a re-analysis of the deposited data

Results flagged for a closer look

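E4 replicate C39 stood apart from the other 5 E4 libraries in C3, at 1488 CPM as compared with 750.3 to 886 CPM in the others, a gap of 0.816 of the range of the group. The same library stood apart in Cfb, at 36.47 CPM as compared with 21.93 to 26.47 CPM, a gap of 0.688 of the range. Of 36 groups of 6 examined, 2 had such a gap, and chance gives about 1 in 20, or 1.8. This library also had the highest marker means of the E4 group for fibroblasts (8.62 log2 CPM, group median 8.21), macrophages (5.28, 4.98), adipocytes (7.83, 7.50), smooth muscle (8.37, 7.999), endothelium (6.64, 6.18), Schwann cells (8.865, 8.03), T cells (0.14, -0.65) and the interferon (5.24, 4.89) and acute phase (3.27, 2.96) lists, and the lowest for sympathetic ganglion and hepatocytes. Their part in these values was not tested.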

How the results depend on the processing

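No paired analysis was possible because each library carries its own animal number. Each log2 difference of a member was recomputed under every alternative for E2, E4 and TAM against OVX and E4 against E2. Of 1467 such values, 1317 kept their direction and side of the threshold, 54 kept the direction and lost the call, 19 gained one and 77 changed sign. No cause of these changes was tested. The 4 members called higher with E2 were called in all 24 fits that left out a library, and under DESeq2 and the other scalings and filters.

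Members called for E2 against OVX were 1 with the study's thresholds and 0 in the second number series. For E4 against OVX they were 0 with the study's thresholds, 2 in the first series, 0 in the second and 0 with the B cell covariate, where C3 stood at 0.93, C4b at 0.54, C2 at -0.44 and Cfb at -0.30 on the log2 scale. For E4 against E2 they were 3 to 8 when a library was left out, 2 with the study's thresholds, 3 at an adjusted p below 0.01, 3 without a filter on low counts, 0 in the second series, 0 with the macrophage covariate, 2 with the B cell, 2 with the fibroblast and 3 with the adipocyte covariate. For TAM against E2 they were 2 with the study's thresholds and 1 in the second series. For TAM against OVX they were 0 to 1 when a library was left out, 1 with DESeq2, 1 without OVX C5 and TAM C35, 1 with the sympathetic ganglion, 2 with the macrophage, 3 with the fibroblast and 1 with the adipocyte covariate. For TAM against E4 they were 0 to 1 when a library was left out and 1 each with DESeq2 and the macrophage, fibroblast and adipocyte covariates. The shares of all tested genes called in the covariate, series and leave-out fits are not given here.

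Signs changed as follows (log2 differences). With the macrophage covariate, E2 against OVX became -0.53 for Cfb, -0.66 for C1ra, -0.46 for C1s1 and -0.54 for Serping1, E4 against OVX became 0.0027 for Cfp and 0.11 for Serping1, and E4 against E2 became 0.33 for C2, 0.44 for C3, 0.18 for C4b, 0.24 for Cfb, 0.55 for C1ra, 0.37 for C1s1 and 0.65 for Serping1. With the fibroblast covariate, E2 against OVX became -0.052 for C1ra, E4 against OVX became 0.15 for Cfp, 0.095 for C1ra, 0.065 for C1s1, 0.32 for Serping1 and 0.013 for C3ar1, and E4 against E2 became 0.071 for C2, 0.037 for C3, 0.15 for C1ra, 0.031 for C1s1 and 0.21 for Serping1. E4 against OVX of Cfp became 0.13 with the B cell covariate and 0.025 in the second series, and that of Serping1 became 0.032 with the adipocyte, 0.044 with the B cell and 0.085 with the sympathetic ganglion covariate and 0.18 in the second series.

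For TAM against OVX, C2, C1ra, C1s1, Serping1 and Cfp changed sign. C2 became 0.0036 with DESeq2, 0.0034 with RLE factors, 0.092 with the adipocyte, 0.074 with the macrophage and 0.023 with the sympathetic ganglion covariate and 0.12 in the second series, and ranged from -0.045 to 0.037 when a library was left out. C1ra became 0.011 with DESeq2, 0.0102 with RLE factors, 0.16 with the adipocyte, 0.096 with the B cell, 0.14 with the macrophage and 0.086 with the sympathetic ganglion covariate, 0.0049 without a filter, 0.00087 with the 2 groups alone, 0.0048 with C1rb added and 0.27 in the second series, and ranged from -0.11 to 0.10 when a library was left out. C1s1 became 0.11, 0.017, 0.065 and 0.032 with the adipocyte, B cell, macrophage and sympathetic ganglion covariates and 0.17 in the second series, and ranged from -0.14 to 0.052. Serping1 became 0.13, 0.0799, 0.14 and 0.071 with the same covariates and 0.35 in the second series, and ranged from -0.12 to 0.082. Cfp became 0.046 with the adipocyte covariate, 0.044 with the B cell covariate and 0.025 in the second series. The counts of overlapping or near-identical genes were added after seeing the data.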
